A study of Homo sapiens with 6 samples.

Results

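The genes that flank ERBB2 on band 17q12 of human chromosome 17 were followed in RNA from the human ovarian carcinoma line that the labels call SKOV3. The neighbours are the 10 genes GRB7, STARD3, PGAP3, MIEN1, TCAP, PNMT, IKZF3, PPP1R1B, NEUROD2 and GSDMB, of 20030 gene symbols in the files. They were listed for their place beside ERBB2, with earlier results of these data known, and each of the 10 was found in the files. The study has 6 samples in 2 groups. In 3 samples the cells were exposed for 24 h to recombinant human CCL20 (rhCCL20), a chemokine that binds the receptor CCR6, dissolved in 5% trehalose. In the other 3 samples the cells received the same 5% trehalose alone for 24 h, so trehalose was present in both groups. The labels give no dose of rhCCL20 and are silent on whether separate cultures were used for the replicates. All p-values therefore rest on the spread among these samples, which may be technical.

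ERBB2 encodes a receptor tyrosine kinase of the EGF receptor family. In some breast, gastric and ovarian carcinomas the chromosome segment around it is present in many extra copies. STARD3, PGAP3, MIEN1 and GRB7 lie near the receptor gene and are commonly copied and transcribed along with it, while NEUROD2, TCAP, PNMT and IKZF3 are better known from neurons, striated muscle, the adrenal medulla and lymphocytes. SKOV3 is known as a line with this amplification and with a deleted CDKN2A.

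The RNA levels of ERBB2 and CDKN2A, given below, did not match that description, so the cells are called by their label only. ERBB2 was at 7.30, 7.23 and 9.20 FPKM in rhCCL20 replicates 1 to 3, and at 7.71, 7.58 and 7.95 FPKM in vehicle replicates 1 to 3. FPKM counts fragments relative to transcript length and to the total mapped in a library, which allows levels of different genes to be compared. By its mean of 7.83 FPKM, ERBB2 stood at percentile 72.9 of all symbols and at percentile 47.1 of the 10263 genes that reached 1 FPKM in 3 or more libraries, which are the genes tested below. The cell cycle inhibitor gene CDKN2A averaged 16.4 FPKM. Among carcinoma markers the keratin gene KRT8 averaged 641 FPKM and the mesothelin gene MSLN 26.3 FPKM, whereas the epithelial adhesion genes EPCAM and CDH1 averaged 0.0172 and 0.175 FPKM. Of 10 such markers 5 were tested, 0 passed, and 1, MSLN, had an unadjusted p under 0.05, beside 4.73% of all tested genes. The median log2 fold change of the 5 was -0.08. Copy number was not measured, and an RNA level does not give it. FPKM does not give the depth of a library. Relative depths, read from the ratios of low values and with vehicle replicate 1 set to 1, were 1.00 to 1.09 in the rhCCL20 libraries and 0.947 to 1.00 in the vehicle libraries. A single library was set off from the rest, that of rhCCL20 replicate 3, at 11.7 on the first principal component against -3.96 to -0.74 for the others, and it held the highest ERBB2 value.

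In the GENCODE annotation of GRCh38 all 10 neighbours are protein-coding genes within a stretch of chromosome 17 that runs from the end of NEUROD2 at 39603536 to the start of GSDMB at 39919854. On the centromeric side of ERBB2 lie NEUROD2 (39603536 to 39609777, minus strand), PPP1R1B (39626740 to 39636626, plus strand), STARD3 (39637065 to 39663484, plus strand), TCAP (39664187 to 39666555, plus strand) and PNMT (39667981 to 39670475, plus strand). These genes are closely packed, with 438 bases between PPP1R1B and STARD3, 702 bases between STARD3 and TCAP and 1425 bases between TCAP and PNMT. PGAP3 (39671122 to 39696797, minus strand) overlaps the start of ERBB2 (39687914 to 39730426, plus strand), and MIEN1 (39728496 to 39730787, minus strand) overlaps its end. On the telomeric side follow GRB7 (39737927 to 39747291, plus strand), IKZF3 (39757715 to 39864188, minus strand) and GSDMB (39904595 to 39919854, minus strand). Exons of PGAP3 and ERBB2 share 194 bases, or 5.29% of the exonic bases of PGAP3, and exons of MIEN1 and ERBB2 share 571 bases, or 24.9% of those of MIEN1. The sources used here do not say whether strand was used in counting, so fragments from these shared bases cannot be assigned to either gene with certainty.

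The start of PGAP3 faces that of ERBB2. In RefSeq sequence of GRCh38.p14, promoter windows of 250 bases before to 50 bases after the start were matched for STARD3, PGAP3, MIEN1 and NEUROD2, and for ERBB2. The RefSeq starts of PGAP3 and ERBB2 lie 37 bases apart on opposite strands, and their windows share 136 bases, from 39688008 to 39688143. Both windows are shown 5′ to 3′ on the strand of their own gene, with the shared bases in capitals. They are shown because these starts leave the same stretch of DNA in opposite directions. The PGAP3 window is chr17:39688008-39688307 on the minus strand, and the ERBB2 window is chr17:39687844-39688143 on the plus strand.
PGAP3: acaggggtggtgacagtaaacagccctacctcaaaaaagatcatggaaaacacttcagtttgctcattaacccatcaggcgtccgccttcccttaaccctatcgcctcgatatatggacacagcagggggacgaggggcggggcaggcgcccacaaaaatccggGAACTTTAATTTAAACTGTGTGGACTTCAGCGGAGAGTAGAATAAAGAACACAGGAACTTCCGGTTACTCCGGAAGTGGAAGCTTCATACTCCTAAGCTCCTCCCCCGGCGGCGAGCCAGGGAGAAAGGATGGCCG
ERBB2: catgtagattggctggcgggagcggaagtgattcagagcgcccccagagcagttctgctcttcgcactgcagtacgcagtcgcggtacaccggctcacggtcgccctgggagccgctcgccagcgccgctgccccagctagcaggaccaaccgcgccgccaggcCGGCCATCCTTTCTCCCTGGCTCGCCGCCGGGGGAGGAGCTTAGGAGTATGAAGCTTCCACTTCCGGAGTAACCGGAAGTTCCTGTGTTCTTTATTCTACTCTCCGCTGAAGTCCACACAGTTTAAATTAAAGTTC
ERBB2 has other starts that this window does not hold. Of its 22 transcripts in the GENCODE annotation, 2 begin within 100 bases of the RefSeq start used here, against 7 of 11 for PGAP3. The PGAP3 level was between 0.153 and 0.228 times that of ERBB2 in the 6 libraries. These are levels of whole genes, and how much of each comes from the starts shown was not measured.

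The windows of MIEN1, the neighbour with the highest level, and of NEUROD2, listed at 0 in 3 libraries, are shown for contrast. They lie at chr17:39730483-39730782 and chr17:39607871-39608170, both on the minus strand. Capitals mark matches on either strand to the GC box GGGCGG, the CCAAT box or the TATA motif TATAAA, none of which overlapped another match.
MIEN1: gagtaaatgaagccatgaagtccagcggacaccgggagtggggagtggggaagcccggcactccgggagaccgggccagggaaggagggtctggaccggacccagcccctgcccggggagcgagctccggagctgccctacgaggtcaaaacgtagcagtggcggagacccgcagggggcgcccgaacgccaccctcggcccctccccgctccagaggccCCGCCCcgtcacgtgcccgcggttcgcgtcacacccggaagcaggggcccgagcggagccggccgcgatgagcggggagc
NEUROD2: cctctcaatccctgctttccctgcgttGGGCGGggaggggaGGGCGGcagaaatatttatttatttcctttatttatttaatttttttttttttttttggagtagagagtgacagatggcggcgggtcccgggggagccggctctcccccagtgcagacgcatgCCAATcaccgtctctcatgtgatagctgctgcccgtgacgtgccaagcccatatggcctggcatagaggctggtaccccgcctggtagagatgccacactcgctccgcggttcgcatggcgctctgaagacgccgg
GGGCGG was found once in the window of MIEN1, once in that of PGAP3, at 2 places in those of STARD3 and NEUROD2 and nowhere in that of ERBB2, and it occurs in 45.0% of the 35116 promoter windows of this length. CCAAT was found once in the windows of NEUROD2 and ERBB2 and occurs in 34.6% of all windows. TATAAA, which occurs in 11.5% of all windows, was found in 0 of these 5. The dinucleotide CG occurred 32 times in the MIEN1 window, 27 times in that of STARD3, 24 times in that of ERBB2, 19 times in that of NEUROD2 and 15 times in that of PGAP3, beside a median of 14 over all windows. NEUROD2, with values at or near 0, thus had as many GC boxes in its window as STARD3.

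By mean level the 10 neighbours spread from percentile 27.7 to percentile 88.8 of all symbols. Of these, 5 averaged at least 1 FPKM and were tested (MIEN1, STARD3, GRB7, PNMT and PGAP3), and 5 fell below the filter (GSDMB, TCAP, PPP1R1B, NEUROD2 and IKZF3). The median of their percentiles among all symbols was 47.9, where 50 is the middle by construction, and 5 of the 10 stood above the middle. Among tested genes, which start at a higher level, the median percentile of the 5 tested neighbours was 26.2, and 1 of the 5, MIEN1, stood above the middle.

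**Figure D1:**
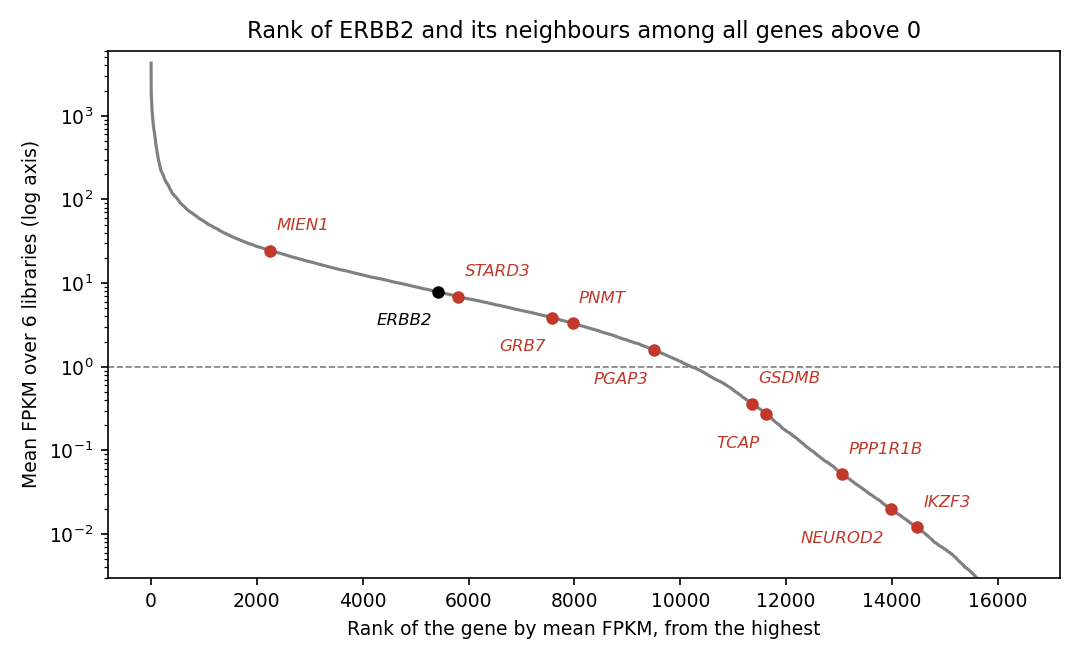
Mean FPKM over 6 libraries (log axis) against rank from the highest, for genes above 0 (grey line), with the 10 neighbours in red and ERBB2 in black. The dashed line marks 1 FPKM, and means under 0.003 FPKM are outside the axis. MIEN1 at rank 2254 was the highest neighbour and IKZF3 at rank 14474 the lowest.

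MIEN1 encodes a small prenylated protein linked to cell migration, and it was the most abundant gene of the group. It was at 22.2, 26.0 and 23.4 FPKM in rhCCL20 replicates 1 to 3, and at 23.8, 25.8 and 25.1 FPKM in vehicle replicates 1 to 3. Every library placed it between percentiles 87.6 and 89.4 of all symbols, and it was between 2.54 and 3.60 times as abundant as ERBB2. STARD3, a sterol transporter of late endosomes and lysosomes, was at 6.80, 6.90 and 6.87 FPKM with rhCCL20, and at 6.47, 7.37 and 6.95 FPKM in vehicle. Its range overlapped that of ERBB2, but within each of the 6 libraries ERBB2 was the higher. With rhCCL20 the STARD3 values lay close together, inside the wider range of the vehicle libraries.

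GRB7, an adaptor protein that binds ERBB2 and other phosphorylated receptors, was at 4.52, 3.40 and 3.94 FPKM with rhCCL20, and at 3.90, 3.71 and 3.74 FPKM in vehicle. Its level was between 0.428 and 0.619 times that of ERBB2. The vehicle values lay within the spread of the rhCCL20 values, of which replicate 1 was the highest and replicate 2 the lowest. PNMT, the enzyme that turns noradrenaline into adrenaline, was at 4.05, 3.32 and 2.94 FPKM with rhCCL20, and at 3.19, 3.06 and 3.24 FPKM in vehicle. PGAP3, which remodels the fatty acids of GPI anchors, was the lowest tested neighbour, at 1.62, 1.65 and 1.41 FPKM with rhCCL20, and at 1.57, 1.54 and 1.66 FPKM in vehicle. For PNMT and PGAP3 rhCCL20 replicate 3 was the lowest of the 6 libraries, while for ERBB2 it was the highest.

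In the order of mean levels MIEN1 came before ERBB2, then STARD3, GRB7, PNMT, PGAP3, GSDMB, TCAP, PPP1R1B, NEUROD2 and IKZF3. The ranges over 6 libraries did not overlap between MIEN1 and ERBB2, between STARD3 and GRB7, between PNMT and PGAP3 or between PGAP3 and GSDMB. They overlapped between GRB7 and PNMT, although GRB7 was the higher in each of the 6 libraries. Below PGAP3 the order was less firm, with GSDMB above TCAP in 5 of 6 libraries, PPP1R1B above NEUROD2 in 4 and NEUROD2 above IKZF3 in 3.

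**Figure D2:**
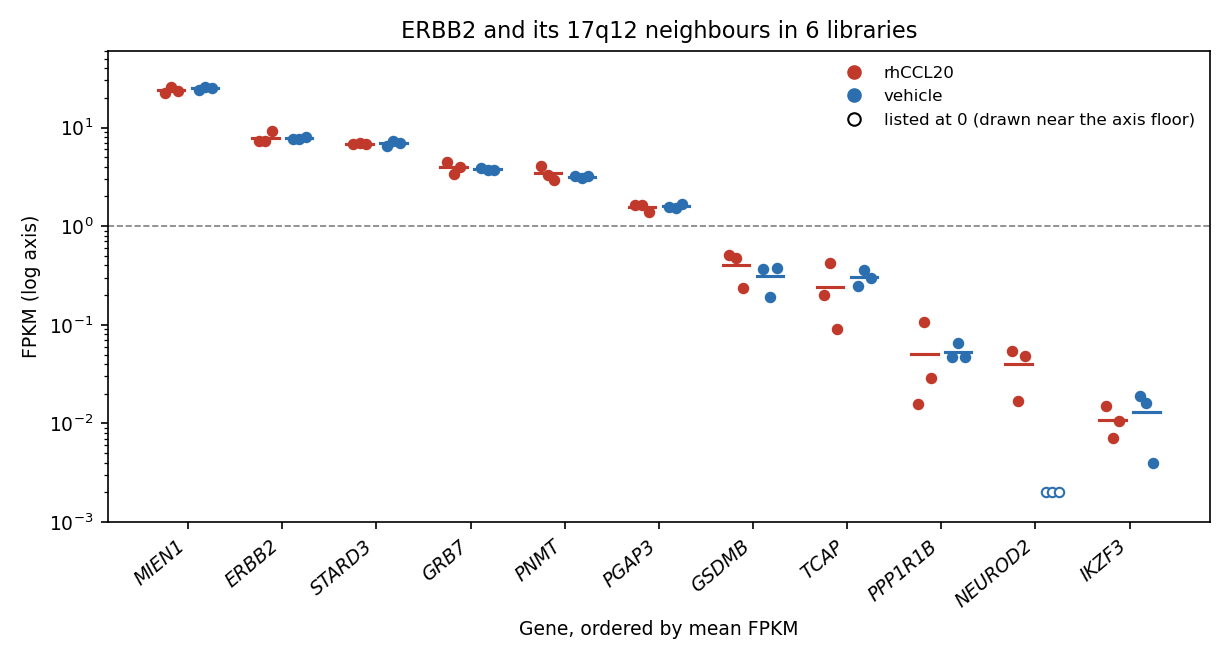
FPKM (log axis) of ERBB2 and its 10 neighbours in each of 3 rhCCL20 libraries (red) and 3 vehicle libraries (blue), with group means as bars. The dashed line marks 1 FPKM. The groups overlap for every gene but NEUROD2, which is listed at 0 in the 3 vehicle libraries.

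The 5 neighbours below the filter were at trace levels, and in RNA from whole cultures fewer cells that express a gene and less RNA per cell cannot be told apart. GSDMB, a gasdermin (a family of pore-forming proteins of cell death), was at 0.511, 0.471 and 0.238 FPKM with rhCCL20, and at 0.369, 0.193 and 0.376 FPKM in vehicle. TCAP, which caps titin in the sarcomere, was at 0.198, 0.428 and 0.0917 FPKM with rhCCL20, and at 0.250, 0.360 and 0.299 FPKM in vehicle. In both genes the groups overlapped, and rhCCL20 replicate 3 was the lowest of its group. PPP1R1B encodes DARPP-32, an inhibitor of protein phosphatase 1 in dopamine signalling. It was at 0.0159, 0.106 and 0.0290 FPKM with rhCCL20, and at 0.0471, 0.0654 and 0.0476 FPKM in vehicle. IKZF3, the lymphoid transcription factor Aiolos, was at 0.0152, 0.0072 and 0.0105 FPKM with rhCCL20, and at 0.0191, 0.0163 and 0.00395 FPKM in vehicle. Both genes overlapped between the groups.

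NEUROD2, a neuronal bHLH transcription factor, was the 1 neighbour whose groups did not overlap, among 8.09% of genes below the filter without overlap and 3.46% without overlap and higher with rhCCL20. It was at 0.0537, 0.0169 and 0.0485 FPKM with rhCCL20 and was listed at 0 in all 3 vehicle libraries. After scaling by relative depth they stood at 3.02, 1 and 2.95 times the smallest of them, that is, near whole steps of 3, 1 and 3. IKZF3 likewise stood at 3.95, 1.98 and 2.98 steps with rhCCL20, and at 4.95, 3.99 and 1 in vehicle. PPP1R1B stood at 1, 6.99 and 1.98 steps with rhCCL20, and at 2.94, 3.87 and 2.91 in vehicle. The smallest value is 1 and a listed 0 is 0 by construction, so for NEUROD2 the spacing rests on 2 values. TCAP and GSDMB showed no such spacing, with 3 of 6 values within 0.15 of a whole number in each, and a step need not be a single fragment. Among 6092 genes above 0 but below the filter, 37 (0.607%) were listed at 0 in all vehicle libraries and above 0 in all rhCCL20 libraries, and 16 (0.263%) showed the opposite. Relative depth was also higher in rhCCL20 replicates 2 and 3, at 1.06 and 1.09, than in any vehicle library. For rhCCL20 replicate 1 it was 1.00, as in vehicle replicate 1. The part of depth in the NEUROD2 values was not tested. With no filter NEUROD2 had an unadjusted limma p of 0.0105 and an adjusted p of 0.91.

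The effect of the chemokine on transcripts of the ERBB2 segment was read from rhCCL20 against vehicle. None of the 5 tested neighbours passed the test. With limma and Benjamini-Hochberg adjustment over 10263 genes, 0 neighbours were called, where 1 gene (0.00974%) was called in all, and 0 had an unadjusted p under 0.05, which 485 genes (4.73%) had. The groups overlapped for all 5 tested neighbours, whereas they did not for 11.0% of tested genes. Of the 5, 2 had a fold change above 0 and 3 below 0, with a median log2 fold change of -0.01 beside 0.01 over all tested genes, of which 57.8% were above 0. The median of the neighbours was 0.03 without vehicle replicate 2 and 0.02 without rhCCL20 replicate 3, so its sign was not stable.

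PNMT had the largest log2 fold change of FPKM + 1, at 3.44 ± 0.565 FPKM with rhCCL20 and 3.16 ± 0.0928 FPKM in vehicle (SD, n = 3 each). On this scale, on which low genes appear to change less than they do, its fold change was 0.08 (SE 0.086, 95% interval -0.11 to 0.28, limma adjusted p = 0.937). Without rhCCL20 replicate 1 it was -0.01. MIEN1 averaged 23.9 ± 1.95 FPKM with rhCCL20 and 24.9 ± 1.03 FPKM in vehicle (SD, n = 3 each), which gave a log2 fold change of -0.06 (SE 0.059, 95% interval -0.19 to 0.07, limma adjusted p = 0.937). It was the 1 tested neighbour whose fold change kept its sign without any 1 library, but it was -0.01 without rhCCL20 replicate 1 and -0.12 without rhCCL20 replicate 2. GRB7 averaged 3.95 ± 0.563 FPKM with rhCCL20 and 3.78 ± 0.101 FPKM in vehicle (SD, n = 3 each), which gave a log2 fold change of 0.05 (95% interval -0.13 to 0.22, limma adjusted p = 0.969) that was -0.04 without rhCCL20 replicate 1. In each of these genes the difference between the means was smaller than the SD of the rhCCL20 libraries, but for PNMT and GRB7 it was larger than the SD of the vehicle libraries.

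STARD3 averaged 6.86 ± 0.0514 FPKM with rhCCL20 and 6.93 ± 0.450 FPKM in vehicle (SD, n = 3 each), which gave a log2 fold change of -0.01 (95% interval -0.13 to 0.11, limma adjusted p = 0.987). PGAP3 averaged 1.56 ± 0.133 FPKM with rhCCL20 and 1.59 ± 0.0619 FPKM in vehicle (SD, n = 3 each), which gave a log2 fold change of -0.02 (95% interval -0.16 to 0.12, limma adjusted p = 0.978). Both signs turned when 1 library was left out, to 0.03 for STARD3 without vehicle replicate 2 and to 0.02 for PGAP3 without rhCCL20 replicate 3. ERBB2 itself averaged 7.91 ± 1.12 FPKM with rhCCL20 and 7.75 ± 0.184 FPKM in vehicle (SD, n = 3 each), which gave a log2 fold change of 0.02 (95% interval -0.16 to 0.20, limma adjusted p = 0.986) that was -0.08 without rhCCL20 replicate 3. No interval of the 5 tested neighbours reached a 1.25-fold change of FPKM + 1 up or down.

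**Figure D3:**
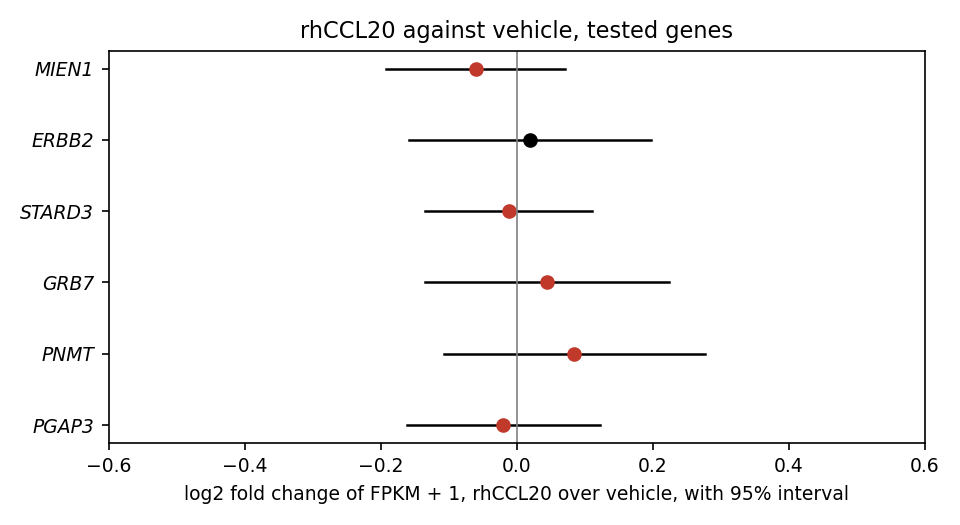
Log2 fold change of FPKM + 1, rhCCL20 over vehicle, with the 95% interval of limma, for ERBB2 (black) and the 5 tested neighbours (red), 3 libraries in each group. Every interval includes 0, and the widest, that of PNMT, runs from -0.11 to 0.28.

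Over the 6 libraries the tested neighbours did not share a single profile. The distance between standardised profiles of log2(FPKM + 1) is 0 for genes that move together and had a median of 1.26 between GRB7 and all tested genes. From GRB7 it was 0.781 to PNMT, 1.25 to ERBB2, 1.38 to PGAP3, 1.47 to STARD3 and 1.79 to MIEN1. PGAP3 and PNMT lay 0.849 apart, STARD3 and MIEN1 0.868, and PGAP3 and ERBB2 1.74. The median over all tested genes was taken for GRB7 only. The genes nearest to GRB7 were TSEN54 at 0.161, the readthrough transcript ZNF660-ZNF197 at 0.178 and TBC1D9 at 0.182, as the nearest of all tested genes over 6 points that share library, depth and preparation.

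The neighbours were set beside the genes of their own families and pathways, none of which passed the test. GRB7 has the paralogues GRB10 and GRB14, which averaged 1.80 and 0.507 FPKM over the 6 libraries beside 3.87 FPKM for GRB7. Of 8 family members and partners of GRB7, 6 were tested, 0 passed and 0 had an unadjusted p under 0.05, with a median log2 fold change of 0.02. The adaptor gene GRB2, the highest of them and the one with the smallest p, averaged 35.9 ± 3.20 FPKM with rhCCL20 and 33.5 ± 0.138 FPKM in vehicle (SD, n = 3 each), with a limma adjusted p of 0.937. Of 15 ERBB receptors and ligands 5 were tested, 0 passed and 0 had an unadjusted p under 0.05, again with a median of 0.02. Without rhCCL20 replicate 3 the median of the receptors and ligands was -0.000406 and without rhCCL20 replicate 1 it was 0.07, while that of the GRB7 list was 0.04 without rhCCL20 replicate 2 and 0.01 without vehicle replicate 3. The receptor gene EGFR, at 9.99 FPKM in its lowest library, stood above ERBB2 in its highest, while ERBB3 averaged 0.700 FPKM and ERBB4 0.00108 FPKM. EGFR averaged 11.1 ± 1.17 FPKM with rhCCL20 and 10.3 ± 0.314 FPKM in vehicle (SD, n = 3 each), and like ERBB2 it was highest in rhCCL20 replicate 3.

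The paralogue STARD3NL, which like STARD3 tethers late endosomes to the endoplasmic reticulum, averaged 16.0 FPKM, above STARD3 at 6.89 FPKM. Of 11 genes of this family and of sterol transport 9 were tested, 0 passed and 0 had an unadjusted p under 0.05. Their median log2 fold change was 0.04, and 0.01 without rhCCL20 replicate 3. The tether gene MOSPD2 had the smallest p, with a log2 fold change of 0.09 and a limma adjusted p of 0.937, and the most abundant was the lysosomal membrane gene LAMP1 at 79.8 FPKM. For PGAP3, 10 of 11 other genes of GPI anchor remodelling and transfer were tested and 0 passed. An unadjusted p under 0.05 was found for 1, beside 4.73% of all tested genes. The transamidase gene PIGS was that gene, at 28.8 ± 0.284 FPKM with rhCCL20 and 27.0 ± 0.191 FPKM in vehicle (SD, n = 3 each), with a limma adjusted p of 0.937. The transamidase gene GPAA1 was the most abundant of them at 83.7 FPKM, and the remodelling genes PGAP1 and PGAP2 averaged 1.34 and 3.66 FPKM beside 1.58 FPKM for PGAP3.

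The tissue-restricted neighbours stood in different company. PNMT averaged 3.30 FPKM, but of the enzymes that supply its substrate TH averaged 0.0016 FPKM, DDC 0.0280 FPKM and DBH was listed at 0 in all 6 libraries. Beside TCAP, 4 of 9 sarcomere genes were listed at 0 in all libraries, and the 1 tested was the troponin gene TNNT2, with a mean of 5.93 FPKM and a log2 fold change of -0.05 (limma adjusted p = 0.969). Beside NEUROD2, 4 of 6 neuronal bHLH genes were listed at 0 in all libraries, and the highest, NEUROG2, averaged 0.151 FPKM. Among the relatives of IKZF3, IKZF5 was the highest at a mean of 4.87 FPKM (log2 fold change 0.03, limma adjusted p = 0.971) and IKZF4 averaged 0.994 FPKM, while IKZF1 averaged 0.0137 FPKM. Of the 4 relatives 2 were tested and 0 passed, and 0 had an unadjusted p under 0.05. Their median log2 fold change was 0.02, and without rhCCL20 replicate 3 or vehicle replicate 3 the 1 tested relative was at 0.08 and 0.06. The 10 lymphocyte markers were each under the filter and none was at 0 in all libraries, with the granule gene NKG7 the highest at a mean of 0.430 FPKM. Their summed level lay between 1.04 and 1.60 FPKM in the rhCCL20 libraries and between 0.88 and 1.90 FPKM in the vehicle libraries, and its part in the IKZF3 values was not tested.

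Beside GSDMB at 0.360 FPKM, GSDME was the most abundant gasdermin at 35.4 FPKM and GSDMD averaged 3.11 FPKM, while GSDMA, a gene of the wider flank, was listed at 0 in all libraries. Of 13 gasdermin and pyroptosis genes 6 were tested, 0 passed and 0 had an unadjusted p under 0.05. Of the 6 tested, 1 was above 0 and 5 below 0, with a median log2 fold change of -0.05 and GSDMD at -0.14 (limma adjusted p = 0.937). The median was -0.02 without vehicle replicate 2 or without rhCCL20 replicate 3, and -0.08 without vehicle replicate 1. The phosphatase subunits that DARPP-32 and its relatives act on were abundant, with PPP1CC at 86.1 FPKM. Of 10 partners of PPP1R1B 7 were tested, 0 passed, and 2 had an unadjusted p under 0.05, beside 4.73% of all tested genes. These 2 were PPP1CB at a log2 fold change of 0.09 and the kinase gene CDK5, named after its value was seen, at -0.14. Both had a limma adjusted p of 0.937. The median of the 7 was 0.09, and 0.01 without rhCCL20 replicate 3.

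**Figure D4:**
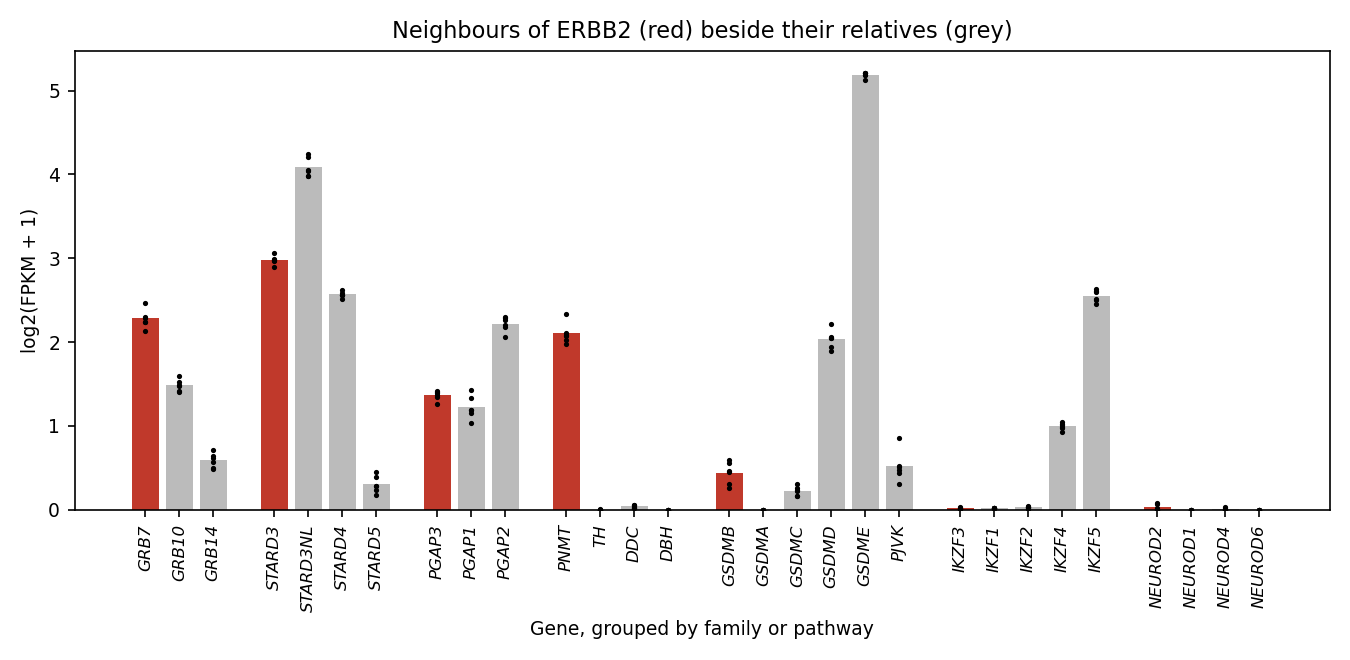
Mean level as log2(FPKM + 1) over 6 libraries (bars) with each library as a point, for 7 neighbours of ERBB2 (red) and relatives or pathway partners (grey). STARD3NL and GSDME stand above STARD3 and GSDMB, and PNMT stands above the other enzymes of catecholamine synthesis.

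Of 6 factors known to act at the ERBB2 promoter, the AP-2 genes TFAP2A and TFAP2C averaged 21.6 and 5.93 FPKM and the cold shock factor YBX1 averaged 400.2 FPKM, while the oestrogen receptor gene ESR1 averaged 0.0022 FPKM. In this list 4 genes were tested, 0 passed and 0 had an unadjusted p under 0.05. The smallest p was that of TFAP2C, at 6.16 ± 0.164 FPKM with rhCCL20 and 5.70 ± 0.432 FPKM in vehicle (SD, n = 3 each). The median log2 fold change was 0.08, but it was 0.01 both without rhCCL20 replicate 3 and without vehicle replicate 2.

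The levels next to ERBB2 were set beside those farther along the chromosome. Within 100 kb of the ERBB2 start, measured to the outermost start of each gene, all 8 other protein-coding genes with a symbol in the files were among the 10 neighbours, with a median percentile of 56.4. The median was 55.9 for 6 genes at 100 to 250 kb, 64.1 for 14 genes at 250 to 500 kb, 68.7 for 22 genes at 500 to 1000 kb and 59.0 for 1009 genes farther than 2000 kb on chromosome 17. These medians were not tested against each other. Between 1000 and 2000 kb the median was 9.18 for 74 genes, of which 45 were listed at 0 in all libraries and 8 passed the filter. Many of these 74 are keratin (KRT) and keratin-associated protein (KRTAP) genes that lie together on the telomeric side. Of the 50 genes within 1000 kb, 19 stood above ERBB2 in mean FPKM, and 1 of these 19, MIEN1, lay within 100 kb.

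The wider flank, a chosen list of 35 other genes on both sides of ERBB2, held several abundant genes. It leaves out some genes of the region, such as SMARCE1 and TNS4, and its gene ZPBP2 starts between IKZF3 and GSDMB. On the centromeric side the ribosomal protein genes RPL23 and RPL19 averaged 942 and 933 FPKM and the proteasome gene PSMB3 242 FPKM. On the telomeric side the highest were IGFBP4, which encodes a binding protein of insulin-like growth factors, at 225 FPKM, the proteasome gene PSMD3 at 77.5 FPKM and the topoisomerase gene TOP2A at 75.2 FPKM. Of the 26 genes tested 15 were above 0 and 11 below 0, 0 passed and 0 had an unadjusted p under 0.05. The median log2 fold change was 0.0045, and -0.02 without rhCCL20 replicate 3. TOP2A had the smallest p, with a limma adjusted p of 0.937. It was at 77.8 ± 5.37 FPKM with rhCCL20 and 72.6 ± 0.623 FPKM in vehicle (SD, n = 3 each). Its groups did not overlap, which held for 11.0% of all tested genes. The groups of CASC3, higher with rhCCL20, and of ORMDL3 and MSL1, lower with it, did not overlap either.

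**Figure D5:**
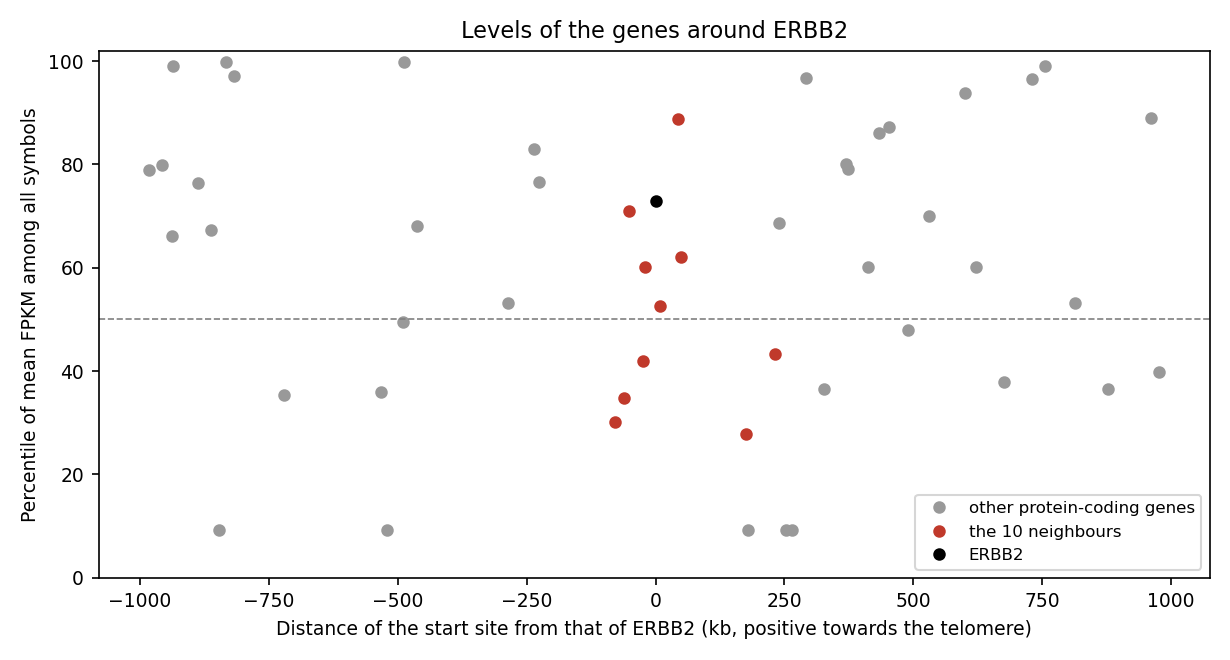
Percentile of mean FPKM among all symbols against the distance of each start from that of ERBB2 in kb, for protein-coding genes within 1000 kb, with the neighbours in red, ERBB2 in black and others in grey. The dashed line marks percentile 50, and genes on both sides of the segment lie above ERBB2.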

How the data were processed

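RNA of 6 samples was extracted with Trizol and made into libraries with an Illumina TruSeq RNA kit, per the labels' protocols. The genome build was GRCh38 and the tools listed are HTSeq, Cufflinks, HISAT2 and Trimmomatic, without roles or versions, per the submitters' processing notes. Each deposited file gives 1 FPKM value for every gene symbol, per the file headers. Nothing used here states the annotation, strand or filters, and since FPKM hides fragment counts no counting intervals are given.

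For genes that reached 1 FPKM in 3 or more libraries, limma 3.58.1 under R 4.3.3 was run (eBayes with a trend, group as the only term) on log2(FPKM + 1) with Benjamini-Hochberg adjustment over all tested genes and a threshold of 0.05. An exact permutation test of 3 against 3 cannot give a p below 0.1. On simulated data with independent normal noise and known changes, 4.63% of the calls of this procedure were false. That noise held no library set off from the rest, so it does not show how the test fares on these samples. Percentiles rank mean FPKM over 6 libraries. Relative depth is the most frequent ratio of values under 0.2 FPKM to those of vehicle replicate 1. Gene models are from GENCODE 29 and may differ from the authors' annotation.

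The members and lists were chosen with earlier results of these data known. Named are all 10 neighbours and ERBB2, of each list the tested gene with the smallest p and the most abundant, the 3 most abundant on each side of the wider flank, and the 3 profiles nearest to GRB7. Other genes serve as examples of family levels or background. The level of 1 cell type marker is not reported here.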

Additional observations from a re-analysis of the deposited data

How the results depend on the processing

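Alternatives changed the pseudocount, the filter, the scaling or the eBayes trend, blocked on replicate number, or left out 1 library, all with limma. The count of 0 neighbours past the threshold held in all 14, and 0 genes passed in any of them in the lists with 2 or more tested genes; the other lists were not rerun. Over all genes 1 passed. No filter gave 0 (861 at an unadjusted p under 0.05), and the fits with 1 library fewer gave 1 to 3, with 3 without vehicle replicate 1. In those fits the log2 fold change lay between -0.0366 and 0.128 for GRB7, -0.0539 and 0.0281 for STARD3, -0.0454 and 0.0241 for PGAP3, -0.0125 and 0.167 for PNMT, -0.122 and -0.0118 for MIEN1, and -0.0819 and 0.0735 for ERBB2. No other alternative turned the sign of these genes, but GRB7, PNMT and PGAP3 could not be fitted under the filter of 5 FPKM. Medians of lists with 1 library fewer lay between -0.0250 and 0.0281 for the neighbours, -0.000406 and 0.0667 for ERBB receptors and ligands, 0.00666 and 0.0426 for the GRB7 list, -0.0149 and 0.00443 for GPI anchors, -0.0760 and -0.0170 for gasdermins, 0.0106 and 0.0558 for sterol transport, 0.00269 and 0.0843 for the relatives of IKZF3, 0.0127 and 0.0997 for the partners of PPP1R1B, 0.00855 and 0.119 for factors at the ERBB2 promoter, -0.0171 and 0.0251 for the wider flank, and -0.0992 and -0.0449 for the cell type markers. Quantile normalization gave 0.0107 for sterol transport, and no filter gave -0.0212 for the cell type markers. The median percentile of the neighbours (47.9) was 26.2 among tested genes, where 5 are counted, and 36.2 among symbols above 0, since fewer low genes are ranked. The cause of the other shifts was not tested. With the replicate block 1 gene and 0 neighbours passed. Deviations from the group means correlated at -0.10, 0.03 and 0.10 between libraries of equal number. Between libraries of unequal number the correlations lay from -0.12 to 0.13. No pairing was seen, but with 3 libraries in each group this cannot tell whether there was any. Unknown depth limits the reading of genes under 1 FPKM.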
